A study of Mus musculus with 12 samples.

Results

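The regions described here are 953 peaks of accessible chromatin that were found in Runx1 knockout (KO) myoblasts without an overlapping wild-type (WT) peak and that lie between genes. They are the rows of the deposited list of KO specific peaks whose centre is outside every annotated gene and more than 1 kb from every gene end. They make up 36.6% of the 2607 KO specific peaks (Wilson interval 34.7 to 38.4) and 3.51% of all 27187 KO peaks. Of the other KO specific peaks, 1310 lie inside genes (11.4% of the KO peaks there) and 344 within 1 kb of a gene end (3.86%). Absence of a WT peak and position between genes chose these peaks, so neither is a result. By the same overlap rule, 9.59% of all KO peaks and 14.0% of the 6785 KO peaks between genes are KO specific.

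The study profiled C2C12 cells, an established mouse myoblast line, by ATAC-seq, in which the Tn5 transposase inserts adapters into open DNA of isolated nuclei. The groups used here are WT and Runx1KO cells at day 0, kept in a growth medium that contains 20% FBS (fetal bovine serum), with 3 samples each. Groups of both genotypes at day 2 of differentiation medium were not analysed here. Whether the knockout cells descend from 1 clone, and how the gene was disrupted, is not given in the sources used here. Every interval and value below comes from the replicate 1 library of its genotype, so neither a replicate error nor a test between genotypes can be given. Intervals cover counting error only. Sequencing depth is unknown, so the fold over local background and the −log10 q are compared only within the KO list.

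Runx1 encodes a DNA-binding factor of the RUNX family that pairs with CBFβ and can either activate or repress its targets. In muscle it is low in resting fibres and induced after denervation or injury. Accessible sites far from genes are mostly enhancers, silencers or insulators, short stretches at which bound factors displace nucleosomes and which can act on promoters over long distances. Which gene such a site acts on cannot be read from distance alone, so the genes named below only locate the peaks.

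Most of these peaks were weak and narrow. Their −log10 q had a median of 8.67 (quartiles 5.74 and 12.3) and a range from 1.35 to 39.6. Among the 5832 KO peaks between genes that overlap a WT peak the median was 17.6 (quartiles 11.01 and 27.2). Fold enrichment over the local background had medians of 6.67 and 9.02. Median width was 261 bp (quartiles 197 and 367) against 396 bp (quartiles 282 and 542), and the widest peak measured 1085 bp. The choice by overlap favours narrow peaks, since a wider one meets a WT peak more easily. When only the centre had to lie outside WT peaks, the medians were 302 and 391 bp. The part of the overlap rule in the width difference was not tested. The WT specific peaks between genes, 2881 in number, had a median width of 243 bp. In strength the peaks resembled KO specific peaks elsewhere more than overlapping ones, since the median −log10 q was 8.19 inside genes and 7.77 near gene ends. A −log10 q of at least 10 was reached by 363 of the 953 (38.1%), and one of at least 20 by 48 (5.04%, interval 3.82 to 6.61), against 42.5% of the overlapping peaks. Of the KO peaks between genes with a −log10 q up to 5, 48.1% had no WT partner. Above 30, this held for 8 of 1212 (0.660%, interval 0.335 to 1.30).

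**Figure D1:**
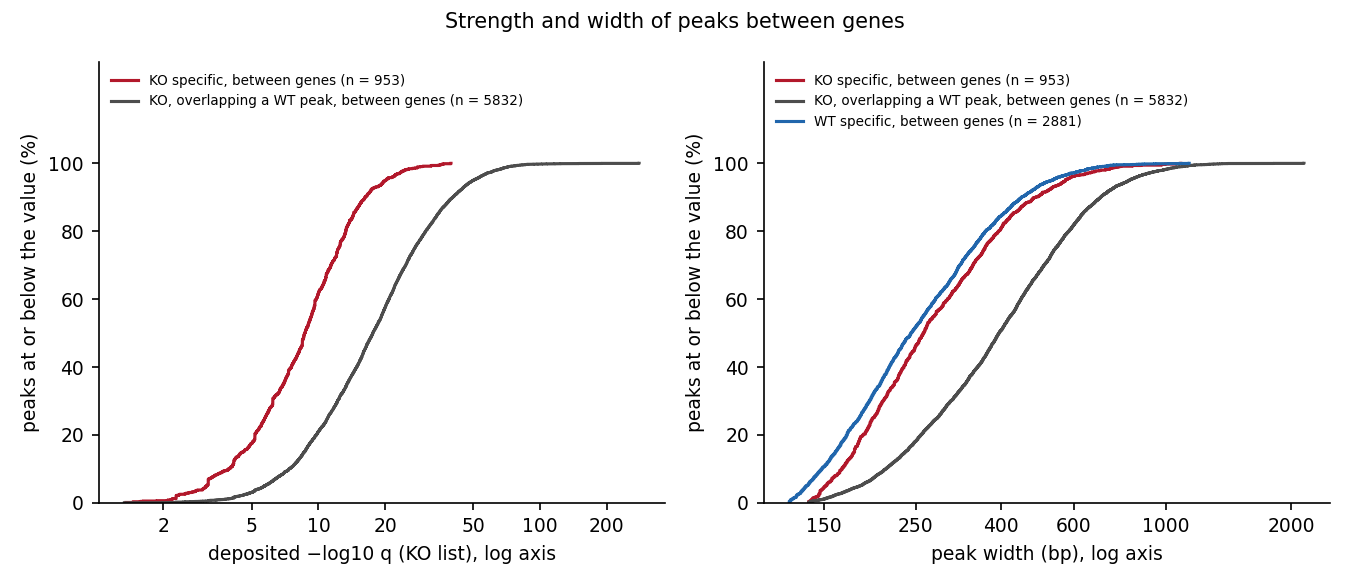
Cumulative share of peaks between genes (vertical axis, %) by deposited −log10 q in the KO list (left) and by peak width in bp (right), both on log axes. The 953 KO specific peaks lie to the left of the 5832 overlapping KO peaks in both panels, with medians of 8.67 against 17.6 and of 261 bp against 396 bp.

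The 10 peaks with the highest −log10 q were examined one by one. The highest lay at chr6:17978345-17979083, 6.76 kb downstream of Wnt2, which encodes a secreted Wnt ligand. It was 739 bp wide with a fold of 15.1 and a −log10 q of 39.6, and 87.9% of all KO peaks had a value no higher. The next, at chr4:64952476-64953346, had a −log10 q of 36.8 and lay 171 kb from Pappa, whose product is a protease that frees insulin-like growth factors from their binding proteins. Both lay about as far from the nearest WT peak, 54.6 kb and 54.2 kb.

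The others were mostly far from any protein-coding gene. A peak at chr17:89450690-89451167 (−log10 q 36.2, fold 15.6) was 250 kb upstream of Fshr, the receptor of follicle-stimulating hormone. Another, at chr4:23954284-23954872 (35.8), was 542 kb upstream of Mms22l, a gene of replication fork repair. The peak at chr5:55355446-55355814 (35.4) had the highest fold of all 953, 16.3, and lay 1235 kb downstream of Stim2, a calcium sensor of the endoplasmic reticulum. Of the remaining ones, chr4:21195605-21195983 (34.8) was nearest to Nkain3 at 415 kb, chr11:56308763-56309073 (32.3) to Nmur2, a neuromedin U receptor, at 268 kb, and chr17:37995689-37996074 (32.1) to the odorant receptor gene Olfr761 at 42.9 kb.

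Closer to genes with known roles in muscle or in guidance of migrating cells were the last of these. The peak at chr3:63556814-63557068 (−log10 q 29.6) lay 73.0 kb upstream of Strit1, which encodes a micropeptide that enhances the calcium pump of the sarcoplasmic reticulum. That at chr5:17556082-17556443 (28.8) lay 18.6 kb upstream of Sema3c, a secreted semaphorin. The distance to the nearest WT peak exceeded 300 kb for 6 of these 10 peaks, among them those named after Fshr (820 kb), Stim2 (1357 kb) and Olfr761 (682 kb), and for 80 of all 953. More generally, 20 of the 48 peaks with a −log10 q over 20 (41.7%, interval 28.9 to 55.7) lay more than 100 kb from a WT peak. This share was 20.6% for values from 10 to 20, 20.3% from 5 to 10 and 14.4% up to 5. Median distances to a WT peak were 66.1, 23.0, 17.9 and 19.2 kb in the same order. All these distances run to WT peaks kept in the deposited list, from which calls had been removed. For 47 of the 48 peaks over 20, at least 1 WT call was missing between the flanking WT peaks. The peak named after Stim2 had 11 such missing calls and that named after Fshr 8.

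**Figure D2:**
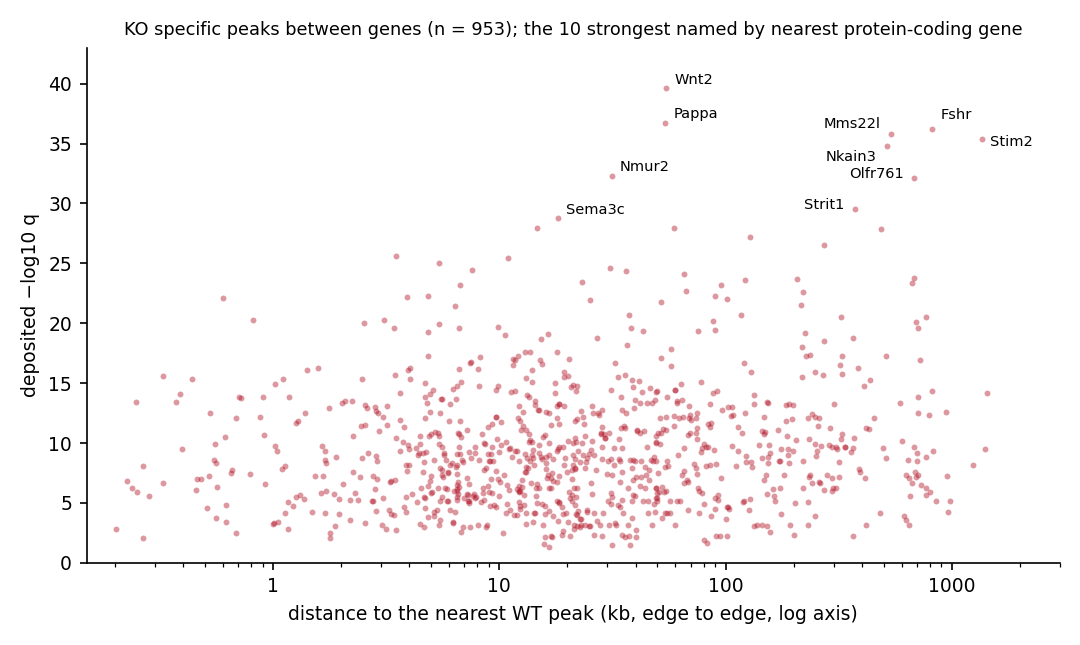
Each point is 1 of the 953 KO specific peaks between genes, placed by its distance to the nearest WT peak (horizontal axis, kb, log scale) and its deposited −log10 q (vertical axis). The 10 strongest are named by the nearest protein-coding gene, and 6 of them lie more than 300 kb from any WT peak kept in the deposited list.

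The sequence of the peaks themselves was not analysed here. Promoter windows of 4 genes nearest to some of these peaks, from RefSeq on GRCm38.p6, are printed as examples, chosen after their values were seen. They run from 250 bases before to 50 after the start given in the RefSeq promoter table. For Wnt2, Kitl and Gm7361 that start lies inside the span of the gene that the distances use. The windows of Wnt2 (chr6:18030396-18030695, minus strand) and Kitl (chr10:100015571-100015870, plus strand), the ligand of the receptor Kit, carried no peak of either genotype. The window of Sema3c (chr5:17574566-17574865, plus strand) carried a peak in both lists. That of the predicted gene Gm7361 (chr5:26257512-26257811, plus strand) carried a KO peak (8.47) and no WT peak. Such windows were at hand for the nearest protein-coding gene of 704 KO specific peaks. A KO peak only was found for 21 of them, and a WT peak only, a kind not printed here, for 46. Capitals mark matches, on either strand, to 6 motifs searched: TGTGGT for RUNX, CCGGAA for ETS, TGANTCA for AP-1, CAGCTG for an E-box, GGAATG for TEAD and CCGCCC for KLF and SP factors.
Wnt2: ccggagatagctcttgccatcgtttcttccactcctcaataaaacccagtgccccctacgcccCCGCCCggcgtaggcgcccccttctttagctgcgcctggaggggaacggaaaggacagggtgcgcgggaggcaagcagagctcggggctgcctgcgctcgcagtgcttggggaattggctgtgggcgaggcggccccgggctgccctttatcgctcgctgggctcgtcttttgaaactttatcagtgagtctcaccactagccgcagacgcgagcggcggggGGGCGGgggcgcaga
Sema3c: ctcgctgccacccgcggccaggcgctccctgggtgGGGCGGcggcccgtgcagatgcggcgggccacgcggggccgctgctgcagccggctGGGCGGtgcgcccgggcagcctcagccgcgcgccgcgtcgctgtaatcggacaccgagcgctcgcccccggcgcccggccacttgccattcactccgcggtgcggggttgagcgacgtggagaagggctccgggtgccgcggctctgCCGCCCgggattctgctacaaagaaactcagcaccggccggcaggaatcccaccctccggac
Kitl: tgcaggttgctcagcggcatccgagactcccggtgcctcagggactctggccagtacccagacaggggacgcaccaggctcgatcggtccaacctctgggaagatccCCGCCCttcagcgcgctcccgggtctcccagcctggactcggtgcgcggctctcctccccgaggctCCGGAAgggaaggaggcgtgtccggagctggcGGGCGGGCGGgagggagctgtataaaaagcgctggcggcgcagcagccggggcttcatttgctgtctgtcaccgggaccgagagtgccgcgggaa
Gm7361: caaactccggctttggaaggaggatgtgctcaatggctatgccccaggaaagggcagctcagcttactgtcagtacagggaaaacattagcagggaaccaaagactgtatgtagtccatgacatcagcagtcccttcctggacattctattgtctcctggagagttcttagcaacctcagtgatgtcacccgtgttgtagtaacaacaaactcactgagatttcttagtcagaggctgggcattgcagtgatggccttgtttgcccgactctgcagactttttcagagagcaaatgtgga
The first 3 are rich in G and C (65.7%, 75.7% and 68.7%) and the capitals in them are KLF/SP matches, with 1 ETS match in Kitl. The Gm7361 window has 48.3% G and C and none of the 6 motifs.

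Distance from genes came next. The centre of the KO specific peaks lay at a median of 16.6 kb from the nearest gene end (quartiles 6.23 and 38.8), against 11.8 kb for overlapping KO peaks and 11.2 kb for WT specific peaks between genes. From the nearest protein-coding gene the medians were 41.6, 29.8 and 28.0 kb. The share of KO peaks between genes without a WT partner was 11.6% at 1 to 5 kb from a gene (190 of 1640, interval 10.1 to 13.2) and 20.6% at 50 to 100 kb (117 of 569, interval 17.4 to 24.1). Beyond 200 kb it was 31.8% (14 of 44, interval 20.0 to 46.6). Within 10 kb the share was 11.5% and beyond 50 kb it was 21.3% (181 of 851, interval 18.7 to 24.1).

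The WT list gives the background for this: 33.7% of WT peaks between genes were WT specific within 10 kb of a gene and 35.8% beyond 50 kb (intervals 32.2 to 35.2 and 32.96 to 38.7), with 49.2% beyond 200 kb (30 of 61). In the KO list each class of strength had a higher share beyond 50 kb. Among KO peaks with a −log10 q up to 10, the share was 28.4% within 10 kb and 42.7% beyond 50 kb. From 10 to 20 it was 10.4% and 22.1%, and above 20 it was 0.912% (10 of 1097) and 5.52% (18 of 326, interval 3.52 to 8.56). No difference between the lists was tested. The median distance to a gene was 28.9 kb when only peaks more than 10 kb from genes were taken and 41.8 kb with protein-coding genes only. The share beyond 50 kb was 13.5% for a −log10 q of at least 10, against 5.64% within 10 kb.

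**Figure D3:**
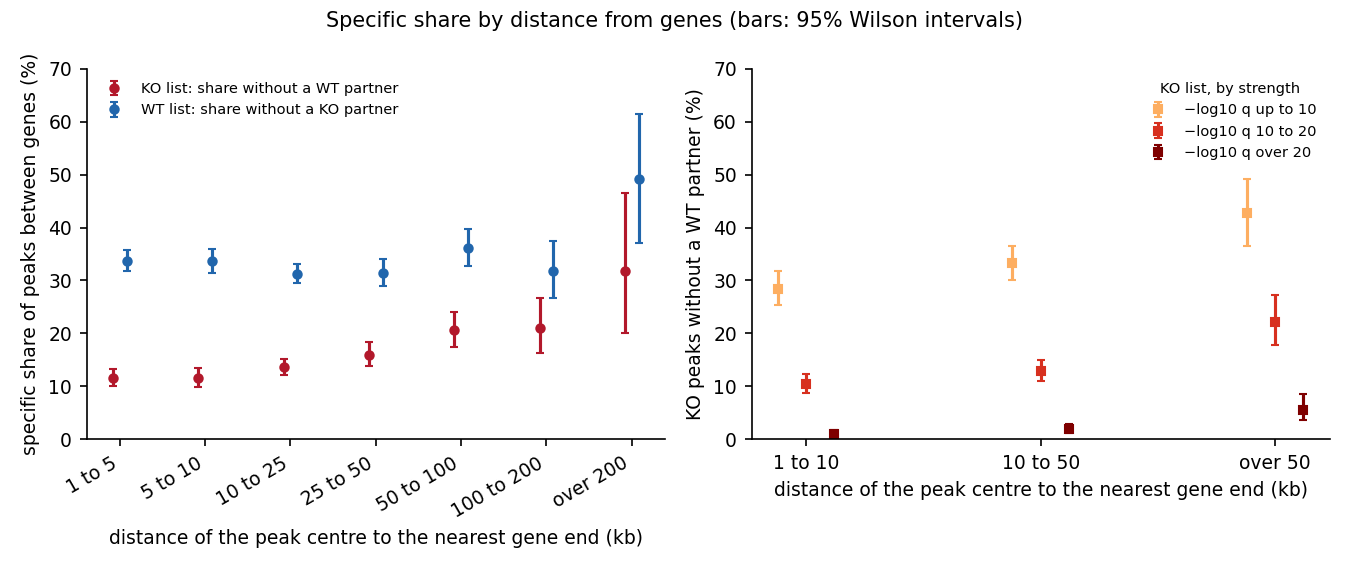
Specific share of peaks between genes (vertical axes, %) by distance of the centre from the nearest gene end (kb), with 95% Wilson intervals. On the left the KO list goes from 11.6% at 1 to 5 kb to 31.8% beyond 200 kb, beside the WT list. On the right the KO list is split into classes of −log10 q, and each class has its highest share beyond 50 kb.

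Many of the peaks stood in stretches where the WT list is empty. The nearest WT peak was at a median of 20.9 kb (quartiles 6.58 and 73.8), and at more than 100 kb for 195 of 953 (20.5%, interval 18.02 to 23.1). Seen from the other side, WT specific peaks between genes had a KO peak at a median of 16.2 kb, and 9.86% of them had none within 100 kb (interval 8.82 to 11), although the KO list is the shorter one. Beyond 500 kb these shares were 4.93% (47 peaks) and 0.764% (22 peaks). KO specific peaks inside genes had no WT peak within 100 kb in 12.7%. The median distance to a WT peak depended on the overlap rule and was 9.66 kb when peaks covered by less than 50% were included, 12.3 kb when only the centre had to be outside.

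Stretches of at least 1 Mb without any WT peak numbered 358 and spanned 777 Mb. They held 130 of the 953 peaks (13.6%), spread over 80 stretches. The 372 stretches of that length without a KO peak spanned 781 Mb and held 139 of the 2881 WT specific peaks between genes (4.82%). These were spread over 97 stretches. The counts, 130 and 139, are close, and the shares are taken of lists of unlike size. Peaks of any position numbered 255 KO peaks in the stretches without a WT peak and 303 WT peaks in those without a KO peak. By the overlap rule, every KO peak wholly inside a stretch without WT peaks is KO specific. The stretch with the highest number of the 953 was chr7:39552901-41393273, 1.84 Mb long. There the KO list had 8 peaks, 7 of them among the 953, with −log10 q from 5.95 to 20.5. Next came chr8:98403255-104022969, 5.62 Mb, with 6 KO peaks, of which 5 were among the 953 and had the cadherin genes Cdh11 or Cdh5 as nearest protein-coding gene. In chr5:25760185-27679158, around Gm7361, the KO list had 13 peaks and 4 of them lay between genes.

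**Figure D4:**
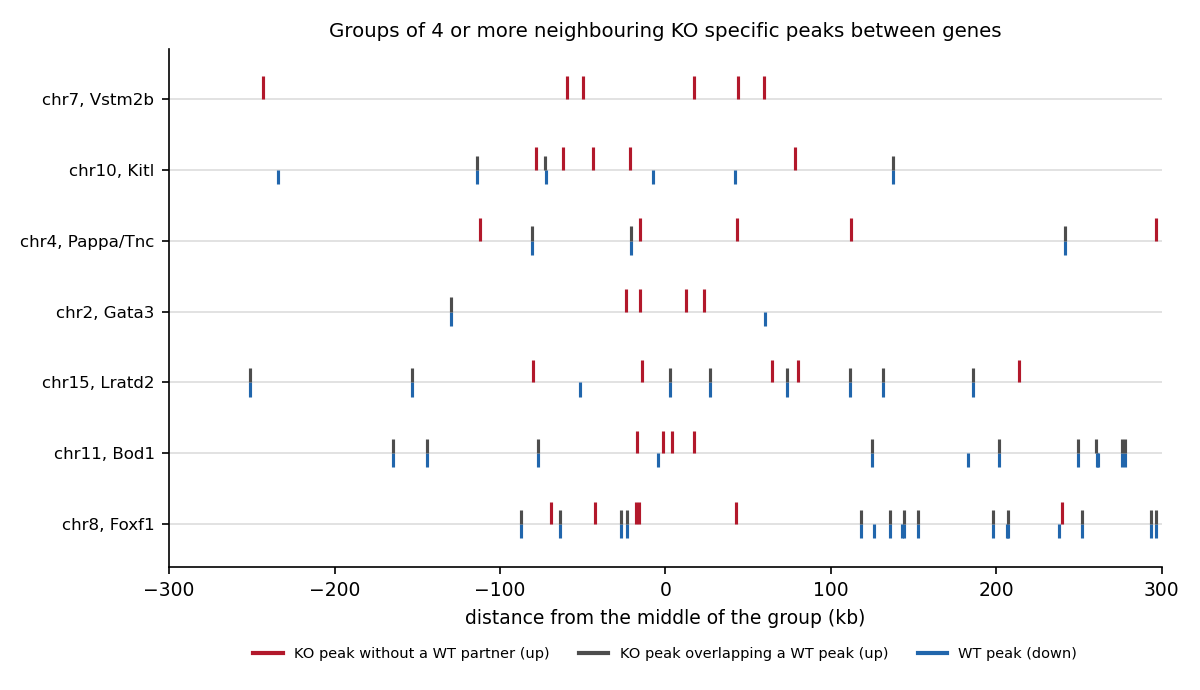
The 7 groups of 4 or more KO specific peaks between genes whose neighbours lie within 100 kb, each drawn to scale around its middle (horizontal axis, kb) and named by chromosome and nearest protein-coding gene. Red marks are KO peaks without a WT partner, dark grey marks KO peaks that overlap a WT peak, and blue marks, drawn downward, WT peaks. The groups on chr7 and chr2 have no WT peak between their outermost members.

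Some of the peaks had each other as neighbours along the chromosome. The nearest KO peak was itself without a WT partner for 217 of the 953 (22.8%, interval 20.2 to 25.5), against 9.53% of the overlapping KO peaks between genes and 17.6% of the KO specific peaks inside genes. Joining neighbours within 100 kb left 719 peaks alone and placed 234 (24.6%) in 105 groups, 90 of them pairs. The median span of the groups was 41.2 kb. In 63 of the groups no WT peak lay between the outermost members, which were themselves chosen for having no WT partner. Neither the share in groups nor this count is given for other peaks, so no comparison can be made. With neighbours joined within 50 kb, or among peaks with a −log10 q of at least 10, 16.5% and 16.0% were in groups.

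Of the 7 groups with at least 4 members, 2 had 5. The first lay at chr7:40248457-40368511, a gene-poor stretch 530 to 649 kb from Vstm2b, which encodes a membrane protein with an immunoglobulin-like domain. From left to right its members had a −log10 q of 20.1, 19.6, 20.5, 5.95 and 14.4. No WT peak of the deposited list lay within 696 kb to its left or 1025 kb to its right.

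The second group of 5, at chr10:99945464-100102426, flanked Kitl. Its members lay 70.04, 53.8, 35.3 and 13.01 kb before the gene and 1.93 kb after it, with a −log10 q of 5.52, 12.1, 12.8, 15.4 and 2.19. Unlike the first group it had 3 WT peaks in its span, 2 of them WT specific.

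At chr2:8734172-8781936, 4 members with a −log10 q of 9.64, 6.22, 13.3 and 24.4 made up all KO peaks of a span of 47.8 kb that had no WT peak. With no WT peak in that span, KO peaks there are KO specific by the rule. Gata3, a zinc finger transcription factor gene, was the nearest protein-coding gene at more than 1 Mb. At chr4:64544324-64769036 the 4 members (24.6, 12.6, 7.33 and 5.32) lay between Tnc, the gene of the matrix protein tenascin C, and Pappa. That span held 6 KO and 2 WT peaks. At chr15:60548033-60708938 the 4 members nearest to Lratd2 had 8.64, 6.21, 7.78 and 23.2, among 7 KO and 4 WT peaks. A group of 4 near Bod1, a gene of chromosome alignment, at chr11:31529626-31564511, reached 17.1 in 1 member and 5.14 to 6.94 in the others. Its span held 1 WT peak. The last group, at chr8:120947255-121032745, 51.8 to 137 kb from Foxf1, a forkhead factor gene of lateral mesoderm, had values from 3.93 to 15.1. Its span held 6 KO and 2 WT peaks.

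The 953 peaks were spread over 771 nearest protein-coding genes, of which 643 had 1 peak and 128 had 2 or more. For 280 of the 771 the WT list had no peak between genes assigned to them. A gene with no other peak between genes in either list enters this count through the choice of the peaks. No such count is given for genes nearest to other classes of peaks. Pappa came first with 6 of its 8 KO peaks between genes and a −log10 q from 5.32 to 36.8, beside 2 WT peaks. Gata3 had 5 of 11 with 9 WT peaks, Lratd2 5 of 12 with 8, and Kitl 5 of 7 with 2. Setbp1, which encodes a partner of the SET protein, had 5 of 6 with 1 WT peak. All 5 KO peaks at Vstm2b and all 4 at Cdh5, the cadherin of endothelial cells, were specific. Neither gene had a WT peak between genes that these could overlap, so their being specific follows largely from the rule. Bod1 had 4 of 4 with 2 WT peaks, both WT specific, Dsc3, a desmosomal cadherin gene, 4 of 5 with 1, and Foxf1 4 of 7 with 3. Gm7361 also had 4, which were all its KO peaks between genes, likewise with no WT peak to overlap. These counts follow the size of the space between genes, which was not scaled for.

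Muscle genes were nearest to few peaks of any class. Of the 53 genes on a list of muscle regulators and contractile proteins, 4 were nearest to 5 of the 953 peaks (0.525%, interval 0.224 to 1.22), against 0.909% of the overlapping KO peaks and 0.972% of the WT specific peaks between genes, both inside that interval. Ncam1, a cell adhesion gene of myoblasts and nerve, had 2 peaks, the stronger with a −log10 q of 9.10. Single peaks lay 31.7 kb from Fst (8.99), the gene of the myostatin antagonist follistatin, 149 kb from Id2 (7.96), an inhibitor of myogenic factors, and 611 kb from Mef2c (12.5), a muscle transcription factor. The gene nearest to a peak among RUNX genes and their partners was Runx1t1 (13.8 at 23.0 kb) in 1 case and Runx2 (8.67 at 19.9 kb) in the other, 2 peaks in all (0.210%, against 0.343% of the overlapping peaks).

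ETS factors, which can bind DNA beside RUNX proteins, were nearest to 4 peaks: Etv1 (−log10 q 16.6), Elk4 (14.96, at 1.36 kb), Ets1 (9.64, at 465 kb) and Erg (5.79). That is 0.420% of the 953, against 0.343% of the overlapping peaks. AP-1 genes were nearest to 2, Jun (11.5 at 13.4 kb) and Atf3 (3.38 at 6.68 kb). Genes of TEAD factors and their partners were also nearest to 2, Vgll2 (13.4) and Tead1 (6.01). Each of these lists had 0.210% of the 953 (interval 0.0576 to 0.762). For AP-1 the shares were 0.377% of overlapping and 0.208% of WT specific peaks between genes, both inside that interval. For TEAD, the counts were 7 of 5832 overlapping and 5 of 2881 WT specific peaks (0.174%), with both shares also inside it. On a list of regulators of other mesenchymal fates such as cartilage, fat and bone, only Ebf1 was nearest, to 1 weak peak (2.28). This is 0.105% (interval 0.0185 to 0.592) against 0.566% of the overlapping KO peaks (33 peaks) and 0.972% of the WT specific ones (28 peaks).

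Secreted ligands and inhibitors of the Wnt, BMP, FGF and TGF-β/activin pathways were nearest to 10 peaks, each a different gene (1.05%, against 0.874% of overlapping and 1.11% of WT specific peaks). After Wnt2 the strongest lay near Wnt5a (12.4 at 112 kb), Gdf6 (9.57), Bmp2 (9.46) and Tgfb2 (8.77). Adhesion and guidance genes best known from the nervous system were nearest to 25 peaks of 18 genes (2.62%, interval 1.78 to 3.84). The shares were 1.05% (61 peaks, interval 0.815 to 1.34) among overlapping KO peaks and 1.25% (36 peaks, interval 0.904 to 1.73) among WT specific peaks between genes.

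Cdh5 led this list with 4 peaks, of which the strongest, at chr8:103535091-103535495, had a −log10 q of 27.9. Cntnap4, Cdh6, Cdh18 and Nectin3 had 2 each, with highest values of 26.5, 23.7, 16.3 and 8.47. The list was drawn up by gene name and includes cadherins of other tissues, such as Cdh5. Only 6 of the 25 peaks lay within 100 kb of the gene, and 6 were assigned to it when genes of any type were allowed. Olfactory, vomeronasal and taste receptor genes were nearest to 6 peaks (0.630%, against 0.480% of overlapping peaks), led by Olfr761. Zinc finger genes were nearest to 9 (0.944%, against 1.25%), 3 of them at Zfp516. No list was tested.

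As over all protein-coding genes, most promoters of the nearest genes carried no KO peak. RefSeq promoter windows were at hand for the nearest protein-coding gene of 704 of the 953. A KO peak touched the window in 288 of these (40.9%, interval 37.3 to 44.6), against 49.5% (interval 48.0 to 50.9) for overlapping KO peaks between genes and 47.5% for WT specific ones. Counted once per gene the shares were 41.9% of 580 genes and 48.6% of 2518 genes, and over all 17274 protein-coding genes of the table the share was 39.5%. In 267 cases (37.9%) both genotypes had a peak at the promoter, in 21 (2.98%) only the KO list and in 46 (6.53%) only the WT list. Among overlapping peaks a KO peak alone was found in 1.45% and a WT peak alone in 7.04%. Up to 10 kb from the gene the share with a KO peak was 37.8% for KO specific and 49.7% for overlapping peaks, and beyond 200 kb 35.0% and 41.3%. With the nearest gene of any type it was 22.9%, against 30.3% of overlapping peaks. Where strand was known, 52.6% of the KO specific peaks lay upstream of the nearest gene, against 53.5% of the overlapping ones.

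Motifs in those promoter windows were counted as a description. TGTGGT occurred in 14.5% of the 777 windows of genes nearest to a KO specific peak between genes (interval 12.2 to 17.2), in 12.3% of those nearest to an overlapping KO peak and in 14.7% of the 21045 windows of all protein-coding genes. For CCGGAA these shares, in the same order, were 14.9% (interval 12.6 to 17.6), 17.2% and 18.9%. For TGANTCA they were 6.69%, 5.998% and 7.04%, and for GGAATG 13.4%, 13.1% and 13.5%. CAGCTG was found in 18.1%, 16.6% and 15.7%. CCGCCC was found in 52.9%, 55.1% and 46.7%.

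All 20 chromosomes of the lists had members. Their share of the KO peaks between genes went from 7.05% on chromosome 19 (11 of 156, interval 3.98 to 12.2) to 18.6% on the X chromosome (27 of 145, interval 13.1 to 25.7). The interval lay above the genome-wide 14.0% on chromosome 8 (69 of 375, 18.4%, interval 14.8 to 22.6). It lay below it on chromosomes 15 (9.86%), 17 (8.53%) and 19. Neighbouring chromosomes in this order do not differ beyond their intervals, which were not adjusted for their number. The WT specific share of WT peaks between genes on chromosome 8 was 30.2%, against 32.9% over all chromosomes.

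**Figure D5:**
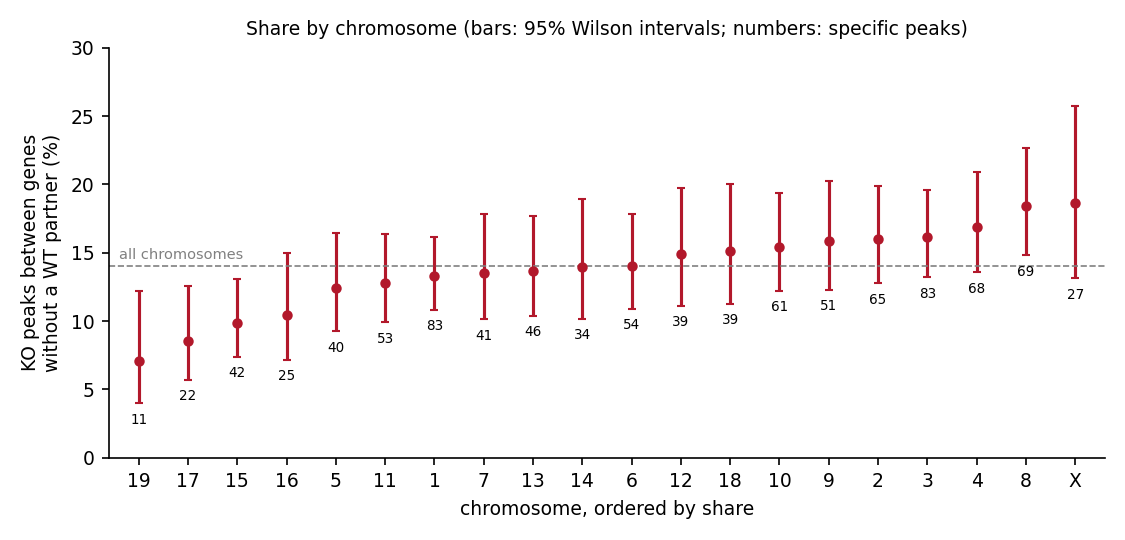
Share of KO peaks between genes without a WT partner (vertical axis, %) on each chromosome, in order of the share, with 95% Wilson intervals and the number of KO specific peaks under each bar. The dashed line is the share over all chromosomes. Chromosomes 15, 17 and 19 lie below it and chromosome 8 above it with their whole interval.

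Peaks at the margins of the definition were within the range of the others. Just beyond 1 kb lay peaks at chr14:27528603-27529103 (1.0045 kb from Gm25697, −log10 q 7.62), chr9:92274445-92274707 (1.03 kb from Plscr2, 13.8) and chr9:103207654-103208006 (1.05 kb from the transferrin gene Trf, 10.6). Just within it, and therefore not counted, were chr8:120920574-120920782 (0.981 kb, 7.78), chr10:92544625-92544793 (0.965 kb, 26.5) and chr7:118508604-118508828 (0.944 kb from Coq7, 5.96). The peaks farthest from any gene lay at chr18:18762609-18762972 (405 kb, −log10 q 11.97), chr8:96784194-96784598 (379 kb, 11.2) and chr1:145942278-145942491 (366 kb, 2.08). Among the widest, at 1085, 995, 977 and 975 bp, were peaks nearest to Prep, Sugct, Tmtc2 and Lratd2, with a −log10 q of 5.27, 6.99, 15.5 and 7.78.

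Calls were removed from the lists before deposit. The WT list holds 34118 peaks with call numbers up to 55373. The KO list holds 27187 peaks with call numbers up to 48922. Call numbers in the lists skip values, and at least 1 WT number was missing between the WT peaks that flank the KO specific peak in 846 of 952 cases (88.9%, interval 86.7 to 90.7), with a median of 2 missing numbers. For overlapping KO peaks this was 37.6%, with a median of 0, and for WT specific peaks between genes, counted in KO numbers, 87.3%. An overlapping KO peak usually has the WT peak it overlaps as a flank. The stretches of KO specific and overlapping peaks are therefore unlike, and their length was not scaled for. Where in the flanked stretch the missing calls lay is unknown, and their part in the results was not tested.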

How the data were processed

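ATAC-seq libraries of C2C12 cells, wild type (WT) or Runx1 knockout (KO), in growth medium were the source of 5 deposited peak lists, which have no header and the layout of a narrowPeak file. The aligner, the peak caller, the Tn5 offset and the rule by which called peaks were removed are not given in the sources used here. The build is mm10, per the submitters' processing notes. The fold is the authors' ratio over local signal. The deposited −log10 p and −log10 q are likewise the authors' own values for each peak. The deposited score is −log10 q times 10, cut to a whole number, and was not used. All values of a list come from the replicate 1 library of its genotype, per the peak names. Read counts were not used here and depth is unknown.

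A KO peak was called KO specific when no WT peak overlapped it by 1 bp, which gave the deposited list exactly. Positions came from the RefSeq gene table of GRCm38.p6. KO peaks touched 26.8% of the promoter windows of that build, and 1.32% after a shift of 10 kb. Distances to genes run from the peak centre and distances between peaks from edge to edge. Neighbouring members were chained where centres lay within 100 kb. Intervals are 95% Wilson intervals or order-statistic intervals of a median. They cover counting error only and treat peaks as units. No test between genotypes was made.

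The members and the gene lists were chosen with earlier results of these data known. The members named are the 10 with the highest −log10 q, the 3 on each side of the 1 kb limit, the 3 farthest from any gene and the 5 widest, of which 1 is not reported here. The genes named are the 10 protein-coding genes nearest to the most members, with Gm7361 added for a tie at 4, and up to 5 of each list. The rule for groups took the 5 with the most members, and ties at 4 made these 7. The sequences printed and the stretches without WT peaks were chosen after their values were seen. The planned analysis of base composition, repeats and motifs in the peaks was not run without a genome, and promoter windows were printed and searched for motifs in place of the planned summit sequences. Chromosome lengths were not used. Alternatives in the gene distance, the gene models, the overlap rule, the threshold, the chaining and the gene assignment were computed. Software was Python 3.11.15 with matplotlib 3.10.9, scipy 1.17.1, pandas 2.3.3 and numpy 2.4.6. The functions were tested on simulated data and against bedtools 2.31.1, where 8 of 8 checks passed.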

Additional observations from a re-analysis of the deposited data

Results flagged for a closer look

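The list of KO specific peaks has an additional column without a name, which no comparison used and for which no sample serves as a control. It repeats the start of the peak in 19 of the 953 KO specific peaks between genes (1.99%, Wilson interval 1.28 to 3.09) and is empty in the others. The same column was filled in 276 of 2881 WT specific peaks between genes (9.58%, interval 8.56 to 10.7). Inside genes it was filled for 25 of 1310 peaks of the KO specific list (1.91%), and near gene ends for 14 of 344 (4.07%, interval 2.44 to 6.71). Among the 19 were the peak at chr5:17556082-17556443 upstream of Sema3c (−log10 q 28.8) and the peak at chr4:64544324-64544985 nearest to Tnc (24.6). The meaning of the column is not given in the sources used here, and its relation to the other measures was not tested.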

How the results depend on the processing

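Across 91 values under alternative settings, 56 stayed within the interval or the range set for the main value, and 35 moved outside it. Under every alternative run, the members' width, fold and −log10 q and the share with a KO peak at the promoter stayed below those of overlapping KO peaks. Their distances to a gene and to the next KO peak and the share next to a KO peak without a WT partner stayed above. The specific share beyond 50 kb stayed above that within 10 kb in the 7 alternatives that gave both. With members more than 5 kb from every gene end, the median distance to a gene was 22.0 kb. With more than 10 kb, 613 members were left, and the medians were 28.9 kb to a gene, 28.3 kb to the next KO peak and 28.5 kb to a WT peak, with 26.3% next to a KO peak without a WT partner and 21.9% in groups. With protein-coding genes only, these were 41.8 kb to a gene, 28.7% in groups and a specific share of 16.2% beyond 50 kb. Allowing up to 50% of the peak to be covered gave a median width of 318 bp, a fold of 7.02, a −log10 q of 9.64 and 9.66 kb to a WT peak. It also gave 26.0% next to a peak without a partner, 28.7% in groups and a share of 26.0% beyond 50 kb. Requiring only the centre outside WT peaks gave 302 bp, a fold of 6.91, a −log10 q of 9.40, 12.3 kb and a share of 24.7%. A −log10 q of at least 10 left 363 members with a median of 13.4, a width of 291 bp, a fold of 8.47, 25.3 kb to a KO peak, 18.6 kb to a gene and 27.7 kb to a WT peak. With it, 26.4% lay next to a peak without a partner, 16.0% in groups, and the share beyond 50 kb was 13.5%. Chaining within 50 kb put 16.5% of members in groups and within 200 kb 35.7%. The nearest gene of any type had a KO peak at its promoter for 22.9% of members. Some of these shifts follow from the setting itself. These are the longer gene distance with peaks near genes left out or with protein-coding genes only, and the higher −log10 q under a threshold. They also include the grouped share by chaining distance. The shorter distance to a WT peak under the looser overlap rules is another, since these take in peaks that overlap a WT peak. The cause of the other shifts was not tested. The share beyond 50 kb had no counterpart within 10 kb under the 10 kb rule and is not given there. Windows around the summit were not run, since they need a genome. No paired analysis was possible because the values of each genotype come from 1 library. For the same reason, leaving out a replicate was not possible. A site without a peak in the deposited WT list counts as absent there, also where a call was removed, and depth is unknown.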

Other observations

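The nearest annotated gene of any type was a pseudogene for 212 of the 953 KO specific peaks between genes (22.2%, Wilson interval 19.7 to 24.995), against 960 of 5832 KO peaks between genes that overlap a WT peak (16.5%, interval 15.5 to 17.4) and 461 of 2881 WT specific peaks between genes (16.0%). A lncRNA gene was nearest to 33.8%, 37.4% and 36.7% of these peaks, and a protein-coding gene to 37.8%, 40.7% and 41.3%.

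Many peaks have identical deposited values. Of the 953 peaks, 285 (29.9%) share both their fold and their −log10 q exactly with at least 1 other of them, and the most common pair, a fold of 6.03 with a −log10 q of 6.22, occurs in 16 peaks. Among the KO peaks that overlap a WT peak the share is 35.8%. The order of such peaks by −log10 q is therefore not resolved.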
